A study of Mus musculus with 12 samples.

Results

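Txnip and Arrdc4 are widely used to read out glucose signalling through MLX, and the peaks of H4 acetylation listed around them are described here. Every peak was taken that overlapped either of 2 windows of the mm9 build, chr3:96330000-96400000 for Txnip and chr7:75850000-75930000 for Arrdc4. Of the 85369 peaks in 6 lists, 6 met this rule, all 6 of them in the Txnip window. Of all 70 kb tiles of the genome 72.5% held no peak in any list and 88.0% held 6 or fewer over the 6 lists, and the median was 6 where any was listed. The Arrdc4 window held 0 peaks in each of the 6 lists. The windows were set by position and not by any measured value, though earlier results of these data were known when they were chosen.

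C2C12 cells, an established line of mouse myoblasts, had been transduced with lentivirus carrying either an MLX-WT or an MLX-DN construct. Acetylated histone H4 (H4ac) was immunoprecipitated from their chromatin with a rabbit antibody and sequenced, with 3 libraries per construct and 1 peak list per library. The labels do not spell out DN, read here as dominant negative, and a description field has MLX down for the same samples. By a tag in the peak names, glucose was present for all 6 lists, so no contrast of glucose levels can be drawn. The labels do not say whether replicates were separate cultures, and the spread behind each p-value may therefore be technical only. Control cells with empty vector or non-targeting shRNA, which the labels also mention, were not analysed here, and neither were the 6 input libraries as such. The myoblast label was not checked against marker genes, since no mm9 annotation was used here.

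MLX is a helix-loop-helix leucine zipper protein that binds DNA as a partner of MondoA (gene Mlxip) or ChREBP (gene Mlxipl). These glucose-sensing partners enter the nucleus when phosphorylated glucose accumulates, and the pair binds carbohydrate response elements, which consist of a pair of E-box-like arms a few bases apart. Txnip encodes thioredoxin-interacting protein, an alpha-arrestin that binds thioredoxin and restrains glucose uptake. Arrdc4 encodes a related alpha-arrestin that also restrains glucose uptake, and both genes are textbook targets of MLX with MondoA in muscle cells. Acetylated histone H4 marks active promoters and enhancers.

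The promoters of both genes are shown because they hold E-box-like arms of the kind that MLX pairs bind. The 250 bases upstream of each annotated start are given 5′ to 3′ from RefSeq, build GRCm38.p6. They lie at chr3:96557707-96557956, plus strand, for Txnip and at chr7:68749239-68749488, minus strand, for Arrdc4. These coordinates are of another build than the peaks and cannot be set against them. Capitals mark every match to the element arm CACGNG or its reverse complement CNCGTG.
Txnip: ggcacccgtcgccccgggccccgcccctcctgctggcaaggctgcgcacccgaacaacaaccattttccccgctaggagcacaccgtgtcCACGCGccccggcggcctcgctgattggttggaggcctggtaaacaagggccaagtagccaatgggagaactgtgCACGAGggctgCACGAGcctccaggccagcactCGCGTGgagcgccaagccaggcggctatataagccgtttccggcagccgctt
Arrdc4: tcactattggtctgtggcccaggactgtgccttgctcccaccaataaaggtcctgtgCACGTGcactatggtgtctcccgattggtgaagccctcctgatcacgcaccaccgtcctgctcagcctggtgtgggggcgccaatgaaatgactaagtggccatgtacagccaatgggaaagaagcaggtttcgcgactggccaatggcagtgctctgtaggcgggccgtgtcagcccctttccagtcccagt

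The Txnip promoter held 4 such arms and the Arrdc4 promoter held 1. In Txnip the copies of CACGAG at 85 to 80 and at 74 to 69 bases before the start were 5 bases apart. The other matches in Txnip were CACGCG at 160 to 155 and CGCGTG at 52 to 47 bases before the start. The single match in Arrdc4, at 193 to 188 bases before the start, was the full E-box CACGTG. The arm CACGNG occurs on either strand in 23.6% of 32536 distinct promoter sequences of the same length, and the E-box, which is a form of that arm, in 6.04%. The inverted arrangement CACGNGNNNNNCNCGTG, its own reverse complement, was in neither promoter and in 0.0400% of all promoters. A pair of arms 5 bases apart in any orientation, a form chosen after the Txnip sequence had been seen, occurs in 24 promoters or 0.0738%. These matches describe letters in a window and show no binding.

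All H4ac peaks of the Txnip window fell in a single region, chr3:96379434-96381688 (mm9), where peaks of the lists overlapped or touched and were merged. The region was 2255 bp wide, wider than 99.5% of the 31891 merged regions of the genome, whose median width was 456 bp. It began 49.4 kb into the window and ended 18.3 kb before the window's end, and the other 67.7 kb of the window held no peak in any list. The centre of the region lay 15.6 kb after the centre of the window. In the RefSeq order of protein-coding genes, Txnip stands between Hjv, which encodes the BMP co-receptor hemojuvelin, and Polr3gl, which encodes a subunit of RNA polymerase III, followed by Ankrd34a. Without gene positions on mm9 the region is assigned to none of these genes, and its distance from the Txnip start is not given. A start anywhere in the window outside these 2255 bp has no listed peak.

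**Figure D1:**
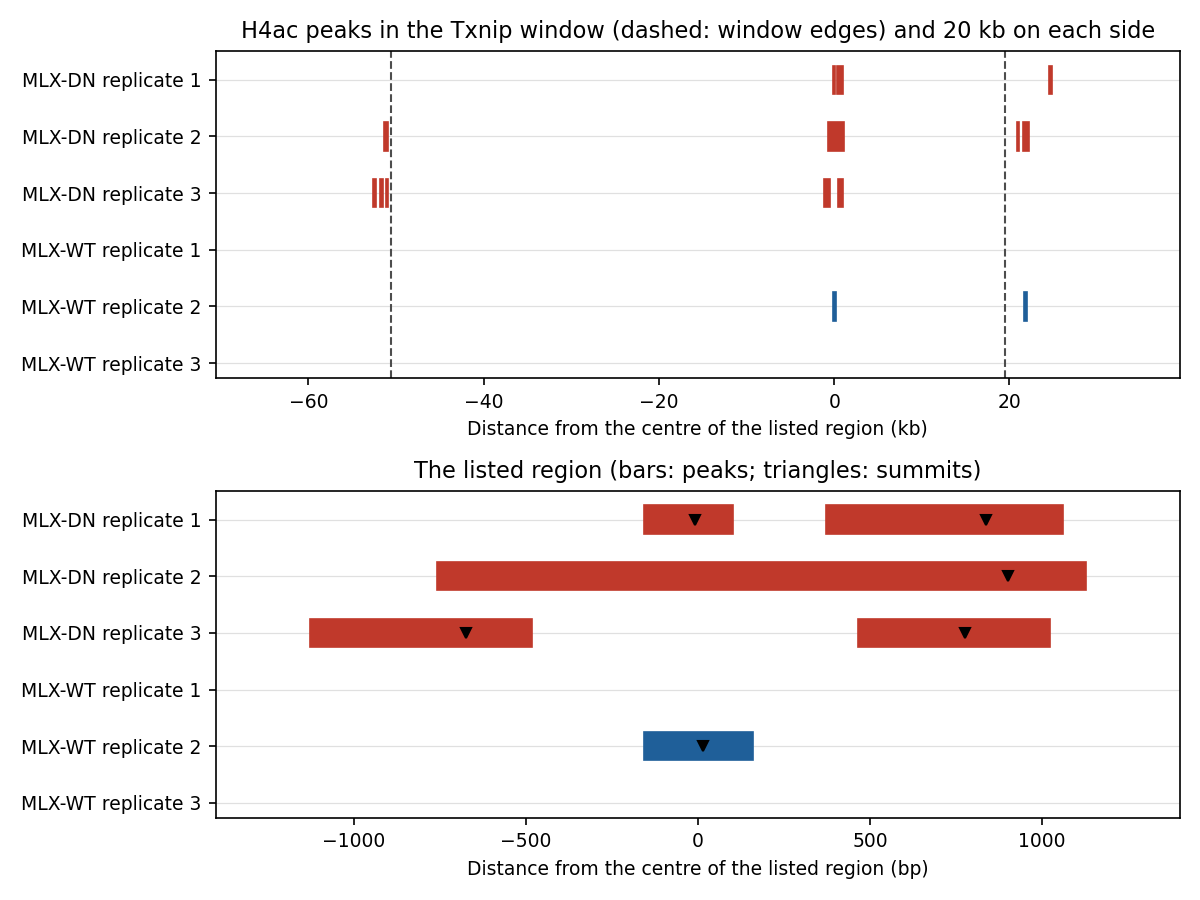
H4ac peaks of each library (rows; MLX-DN red, MLX-WT blue) by distance from the centre of the region, in kb over the window and 20 kb to each side (top, dashed lines at the window's edges) and in bp over the region (bottom, triangles at the summits). The 3 MLX-DN libraries and MLX-WT replicate 2 list peaks in the region, and MLX-WT replicates 1 and 3 list none within the span shown.

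The region was listed by all 3 MLX-DN libraries and by 1 of the 3 MLX-WT libraries, replicate 2. There were 2 peaks in MLX-DN replicate 1, 1 in replicate 2 and 2 in replicate 3, against 0, 1 and 0 in MLX-WT replicates 1, 2 and 3. The groups thus shared the value of 1 peak, and the means were 1.67 ± 0.577 and 0.333 ± 0.577 peaks (n = 3, SD; two-sided exact permutation test, p = 0.20). Among all 10360 tiles of 70 kb with a peak in any list, every MLX-DN library had more peaks than every MLX-WT library in 14.4%, and the reverse held in 0.28%. Regions with this pattern, all 3 MLX-DN libraries and 1 MLX-WT library, made up 5.61% of the merged regions, against 0.304% with the mirror pattern. In 69.9% of the 1788 regions of this pattern the MLX-WT library was replicate 2, as here, and that library has the longest MLX-WT list, with 13652 peaks.

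Listed peaks covered more of the window in each MLX-DN library than in any MLX-WT library, a difference that cannot pass 0.05 in this design. They covered 947, 1887 and 1204 bp in MLX-DN replicates 1, 2 and 3 and 0, 317 and 0 bp in MLX-WT replicates 1, 2 and 3. The groups did not overlap, since the lowest MLX-DN library had 947 bp and the highest MLX-WT library 317 bp. The means were 1346 ± 486 bp and 106 ± 183 bp (n = 3, SD; two-sided exact permutation test, p = 0.10, the smallest p that 3 libraries against 3 allow). Over the 4 tests of both windows the adjusted p was 0.40 for covered length and 0.40 for peak number. Among the 10360 tiles, covered length was higher in every MLX-DN than in every MLX-WT library in 24.6%, and higher in every MLX-WT library in 0.454%. On chromosome 3 the former share was 28.4% of 564 tiles. The Txnip window is thus 1 of many stretches of the genome with this order of the libraries.

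The length of the lists and the control background of chromosome 3 moved with this difference. Peaks per list numbered 18970 ± 5129 for MLX-DN and 9486 ± 4134 for MLX-WT (n = 3, SD; exact permutation p = 0.10). On chromosome 3 they held 892 ± 260 and 374 ± 165. Control background beneath the 115 regions of chromosome 3 that all 6 libraries list, relative to the library mean, was 0.973 ± 0.0206 for MLX-DN and 0.850 ± 0.0129 for MLX-WT (n = 3, SD; exact permutation p = 0.10). The part of these in the result for the Txnip window was not tested. With every list cut to 5385 peaks, as many as the shortest holds, the covered length remained without overlap. It was 688, 1887 and 558 bp in the MLX-DN libraries against 0, 317 and 0 bp, and each MLX-DN library then had 1 peak. The share of all tiles with this order under the cut was not computed. The cut removes whole peaks and leaves the others as wide as in the full lists, so it does not equalise widths. The kept peaks of MLX-DN replicate 3 and MLX-WT replicate 2 ranked 4999 and 5313, not far from the cut. A cut below 4999 would have removed both and left 0 bp in libraries of both constructs.

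**Figure D2:**
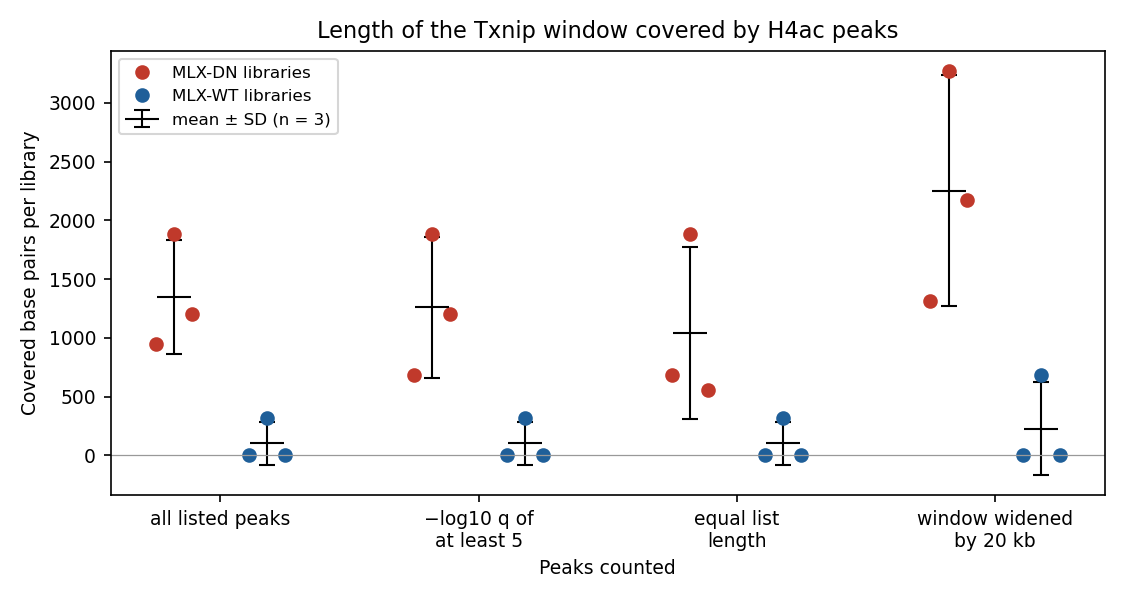
Base pairs of the Txnip window covered by H4ac peaks in each library (points) with mean ± SD over 3 libraries per construct, for all listed peaks and under 3 other choices. The lowest MLX-DN library lies above the highest MLX-WT library (317 bp in the window) under each choice.

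Within the region the summits fell at 3 places. The strongest peak of each MLX-DN library had its summit at the downstream end, at 96381399, 96381461 and 96381337 in replicates 1, 2 and 3, all within 124 bp of each other. A weaker peak of MLX-DN replicate 1 and the only MLX-WT peak, in replicate 2, had summits 21 bp apart, at 96380554 and 96380575, and began at the same base. The remaining summit, of MLX-DN replicate 3, lay upstream at 96379888. No MLX-WT library listed a peak at the downstream place: the end of the MLX-WT replicate 2 peak, 96380720, came before the start of the downstream peaks of MLX-DN replicates 1 and 3. MLX-DN replicate 2 covered all 3 places with 1 peak of 1887 bp. In the other MLX-DN libraries 271 bp (replicate 1) and 947 bp (replicate 3) without a peak separated the listed peaks.

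In both MLX-DN libraries with more than 1 peak, the downstream peak ranked above the other one. Fold below is the authors' ratio of ChIP reads over background, and the percentile is the peak's place within its own list by the authors' −log10 q, with 100 the strongest. In MLX-DN replicate 1 the downstream peak, chr3:96380934-96381621, was 688 bp wide, with a fold of 5.57, a −log10 q of 13.6 and rank 2212 of 15201, at percentile 85.4. The peak of MLX-DN replicate 2, chr3:96379802-96381688, had a fold of 6.24, a −log10 q of 19.2 and rank 1902 of 24811, at percentile 92.3. The downstream peak of MLX-DN replicate 3, chr3:96381027-96381584, was 558 bp wide, with a fold of 3.78, a −log10 q of 9.35 and rank 4999 of 16898, at percentile 70.3. All of these stood in the upper part of their lists, above the median peak.

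The other peaks had middle or low ranks. The middle peak of MLX-DN replicate 1, chr3:96380404-96380662, was 259 bp wide, with a fold of 2.82 and a −log10 q of 3.67, and ranked 12730, at percentile 16.1. The MLX-WT replicate 2 peak at the same place, chr3:96380404-96380720, was 317 bp wide, with a fold of 4.64 and a −log10 q of 8.18, and ranked 5313 of 13652, at percentile 61.1. The upstream peak of MLX-DN replicate 3, chr3:96379434-96380079, was 646 bp wide, with a fold of 3.49 and a −log10 q of 6.18, and ranked 9099, at percentile 46.0. Ranks and folds come from lists of different lengths, were not tested between the constructs and show no change between them.

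Reads behind these peaks were recovered from fold and p, which in this caller's output derive from the same ChIP and background values. ChIP reads at the summit are given as counts and as multiples of the library's genome-wide level, which was 3.30 to 3.90 ChIP reads per 250 bp window in the 6 libraries. The downstream summits rested on 39, 54 and 44 reads in MLX-DN replicates 1, 2 and 3, or 11.7, 13.9 and 12.1 times that level. The upstream summit of MLX-DN replicate 3 rested on 33 reads, or 9.10 times the level. All of these exceeded the 7.28 times of the MLX-WT replicate 2 summit, though at other positions of the region. Among the 3107 regions listed by all 6 libraries, the highest summit was higher in every MLX-DN than in every MLX-WT library in 57.6%, and the reverse held in 1.19%. The region was not tested on summit reads, because 2 of the 6 libraries list no peak in it.

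At the shared middle summit the read numbers were close to each other and the background values were further apart. MLX-DN replicate 1 had 29 reads there, 8.68 times its level (exact Poisson 95% interval 5.81 to 12.5, which covers counting error only). MLX-WT replicate 2 had 28 reads, 7.28 times its level (4.84 to 10.5), and the intervals overlap. The control background was 9 reads in MLX-DN replicate 1, 2.87 times the genome-wide control level of that list, and 4.85 reads in MLX-WT replicate 2, 1.35 times its level. No interval was computed for these backgrounds, and their difference was not tested. The authors' folds at this place were 2.82 in MLX-DN replicate 1 and 4.64 in MLX-WT replicate 2, and were not tested. They are ratios over these backgrounds once the ChIP reads are scaled by 0.938 and 0.933, with a pseudocount of 1. The unscaled reads given here therefore do not divide directly to the folds. Over all 6 peaks the background was 1.35 to 2.99 times the genome-wide control level, lowest at the MLX-WT peak.

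**Figure D3:**
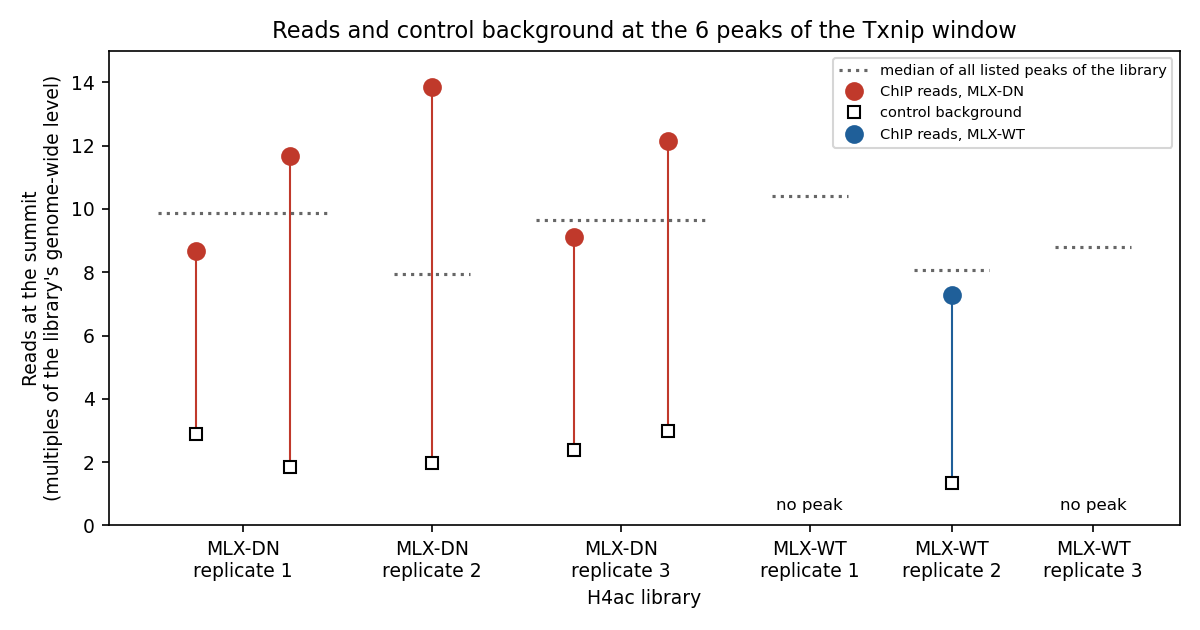
ChIP reads (filled circles; MLX-DN red, MLX-WT blue) and control background (open squares) at the summit of each of the 6 peaks, as multiples of the library's genome-wide level, with the median ChIP level of all listed peaks of each library as a dotted line. The downstream MLX-DN summits, at 11.7, 13.9 and 12.1, lie above their libraries' medians, while the other MLX-DN summits, at 8.68 and 9.10, and the MLX-WT summit, at 7.28, lie below theirs.

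Depth and the p threshold of each list limit what the empty lists of MLX-WT replicates 1 and 3 show. With a background of 1.35 times the control level, as beneath the MLX-WT replicate 2 peak, listing would have taken 16 reads in replicate 1 and 14 in replicate 3, or 4.63 and 4.24 times the genome-wide level. With the highest background of any of the 6 peaks, 2.99 times, it would have taken 26 and 23 reads, or 7.52 and 6.97 times the level. These numbers assume the lowest −log10 p of each list as its threshold, and the background of these libraries at the region is not known. That lowest value was 4.22, 3.79 and 3.97 in MLX-WT replicates 1 to 3, and 3.74, 3.51 and 3.69 in MLX-DN replicates 1 to 3. Summits as high as the downstream ones of MLX-DN would have passed either threshold, while one of 7.28 times would have missed that of replicate 1 at the highest background. At this depth and with these thresholds, acetylation below these levels was not detectable.

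Of the 8 peaks listed within 20 kb outside the Txnip window, 7 were in MLX-DN lists, which hold 66.7% of all listed peaks. Before the window, MLX-DN replicate 2 had a peak at chr3:96329124-96329634 with a fold of 3.70, ending 0.366 kb from the edge. MLX-DN replicate 3 had 3 peaks there, of which the nearest, at chr3:96329354-96329618, ended 0.382 kb from the edge and had a fold of 3.57. In the remaining libraries the nearest peak before the window was at least 111 kb away. After the window, MLX-DN replicate 2 and MLX-WT replicate 2 listed overlapping peaks, chr3:96402159-96402780, with a fold of 4.14, and chr3:96402190-96402556, with a fold of 2.97. MLX-DN replicate 2 had another peak at chr3:96401423-96401672, and MLX-DN replicate 1 had one at chr3:96405110-96405474 with a fold of 3.86. With 20 kb added to each side, the MLX-DN replicates listed 3, 4 and 5 peaks and the MLX-WT replicates 0, 2 and 0, without overlap (exact permutation test, two-sided, p = 0.10), as did 16.5% of tiles of that width in the same direction.

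Within 500 kb of the Txnip window there were 19, 25 and 19 peaks in the MLX-DN lists, against 3, 13 and 6 in those of MLX-WT. These numbers do not overlap either, which held for 33.7% of tiles of that width. The empty Txnip windows of MLX-WT replicates 1 and 3 were parts of stretches of 390 and 221 kb without a listed peak.

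The Arrdc4 window lay in a long stretch without any listed H4ac peak in either construct. All 6 lists held 0 peaks and 0 covered bp in the window (exact permutation p = 1.0 for both), also with 20 kb added to each side. Of 32931 tiles of 80 kb, 70.5% held no peak in any list, so an empty tile of this size is the usual case. The tiles were not limited to those that hold a gene. The stretch ran over 2071 kb, chr7:75424249-77495729, and 189 of 31871 gaps between merged regions were longer, or 0.593%. Gaps of at least that length made up 27.7% of the span of the listed chromosomes. Peak numbers in the lists run on without a missing number across both windows in all 6 libraries.

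Peaks were listed beyond both ends of this stretch in all 6 libraries. The last peak before it ended 426 kb before the window in each library, rounded to 1 kb, with folds of 4.48, 3.76 and 4.87 in MLX-DN replicates 1 to 3 and 4.71, 5.30 and 2.91 in MLX-WT replicates 1 to 3. The first peak of each library after it began 1566 to 1575 kb beyond the window, not at the same site in all libraries. The folds of these first peaks were 4.10, 2.84 and 4.44 for MLX-DN and 4.23, 2.81 and 4.22 for MLX-WT. Because the sites differ, these folds do not compare the constructs at 1 position. In the RefSeq order, Arrdc4 stands between the protein-coding genes Fam169b and Nr2f2, which encodes the nuclear receptor COUP-TFII. No peak was assigned to these genes.

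**Figure D4:**
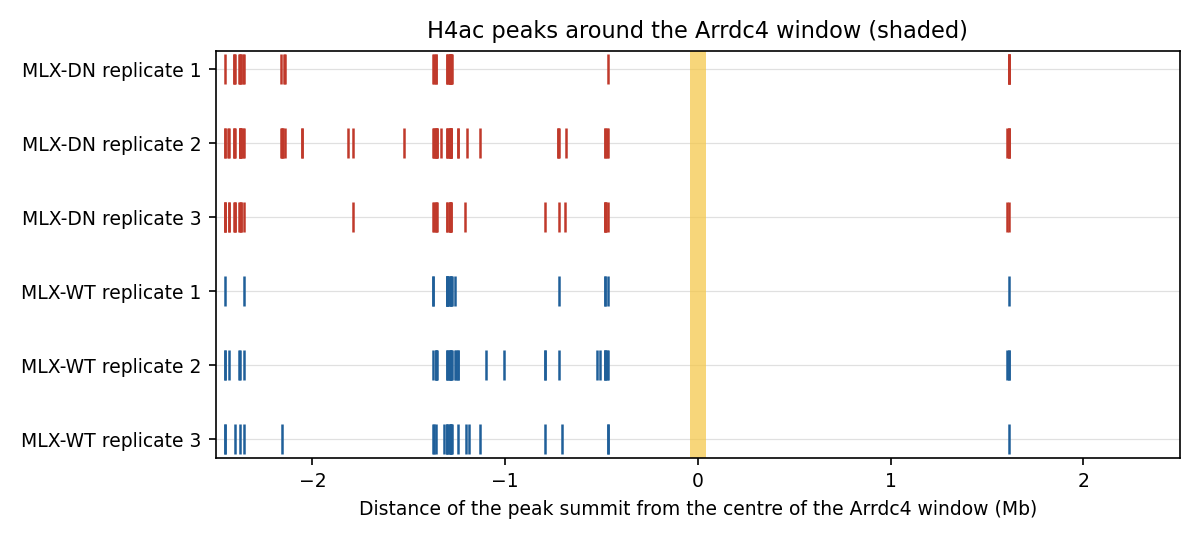
Summits of H4ac peaks (ticks; MLX-DN red, MLX-WT blue) within 2.5 Mb of the centre of the Arrdc4 window (shaded) in each library, by distance in Mb. No library has a summit in the window, and the nearest peaks end about 426 kb before it and begin 1566 to 1575 kb after it.

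Around Arrdc4 the peak numbers of the constructs overlapped. Within 500 kb of the Arrdc4 window the lists held 1, 4 and 5 peaks in MLX-DN replicates 1 to 3 and 3, 7 and 2 in MLX-WT replicates 1 to 3, where MLX-WT replicate 2 had the most and MLX-DN replicate 1 the fewest. On chromosome 7 as a whole the MLX-DN lists held 1092 ± 321 peaks and the MLX-WT lists 593 ± 275 (n = 3, SD), which overlapped (exact permutation p = 0.20). Control background there, relative to the library mean, overlapped too, at 0.771 ± 0.0190 and 0.797 ± 0.0346 (exact permutation p = 0.30). The difference between the loci was not tested.

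A threshold of −log10 q of at least 5 removed 1 of the 6 peaks, the middle peak of MLX-DN replicate 1. The weakest peak that remained had a −log10 q of 6.18, so no peak lay close to that threshold. The lists themselves begin at a −log10 q of 1.31 to 1.35, and the weakest of the 6 peaks, at 3.67, was above it. By −log10 p the lists begin at 3.51 to 3.74 in MLX-DN and at 3.79 to 4.22 in MLX-WT.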

How the data were processed

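The files are 6 lists of H4ac peaks, 1 per library, so peaks were called per sample. Per the submitters' processing notes, the tools were MACS2 2.0.9, BWA 0.5.9-r26, SAMtools, CASAVA, Picard 1.65 and R 2.14.0 and the build mm9, without roles or settings. Each deposited peak has the authors' fold of ChIP over background (a ratio), −log10 values of p and q (p-value and q-value), and a score that was not used. The sources used here do not name the control library of each list.

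Groups and replicate numbers come from the sample titles. Positions count from 1, and an overlap of 1 bp placed a peak in a window. Peaks that overlapped or touched were merged into regions. A scan of ChIP scale factors gave a whole read number at 100% of peaks (tolerance 0.001 on −log10 p), with a pseudocount of 1 in the fold; the smallest background of a list, divided by the factor, is the depth. The steps were checked on simulated data with Python 3.11.15, numpy 2.4.6 and scipy 1.17.1. Peak number and covered length per window were compared by an exact permutation test of 20 assignments. All regions and peaks of the windows were named. The pathway gene list was not used, since no mm9 annotation was used here. The windows and tests were chosen with earlier results of these data known. Shares of tiles use tiles laid from the first base of each chromosome to its last peak. Alternatives comprised only peaks with −log10 q of 5 or more, equal list length, windows widened by 20 kb, summits inside the window, each library left out, the replicate block and, added after the data were seen, equal depth.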

Additional observations from a re-analysis of the deposited data

How the results depend on the processing

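The 12 alternatives for each of the 4 tested values were 48 in all, and none passed 0.05, which 3 libraries against 3 cannot reach. For both Txnip values every alternative left the direction as it was. The Txnip difference in covered length (1240 bp, MLX-DN minus MLX-WT) was 1154 bp at a −log10 q of at least 5, 939 bp at equal list length, 2023 bp in the widened window and 970 to 1440 bp with 1 library left out, with p = 0.10 in each exact permutation test. The difference in peak number (1.33) was 1.00, 0.667, 3.33 and 1.17 to 1.67 in the same order (exact permutation p = 0.10 to 0.40). Equal depth, added after the data were seen, and the rule on summits changed neither. All Arrdc4 values were 0 in every library throughout, so they had no direction to keep and their alternatives tested nothing. With the replicate block the Txnip differences were again 1240 bp (exact sign-flip test, p = 0.25, the smallest that 3 pairs allow) and 1.33 peaks (p = 0.50). Same-numbered libraries did not deviate together (correlations of −0.0593, −0.0596 and 0.000683 across regions), so the block rests on a number only. The alternatives for summit reads were not run, because 2 libraries list no peak in the Txnip window and none lists one in the Arrdc4 window. No listed summit rested on fewer than 13 reads, and none in MLX-WT replicate 1 on fewer than 16. The limit differs by library and rises with local background. Acetylation below the limit of a library in either window was not detectable.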

Other observations

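The regions most like the region of the Txnip window, which is assigned to no gene, were sought among 1250 regions. These were listed by the same 4 libraries and were compared by the summed absolute log2 difference of their highest summit reads over depth. The 5 nearest were chr17:71197861-71199263, chr14:49685647-49686100, chr12:89598962-89599640, chr17:27276934-27278878 and chr18:39648637-39649630 (mm9), with summed differences of 0.203 to 0.325. Only 4 values per region enter, so many regions can come this close. Against the 1250, the region of the Txnip window had more reads than 67.0%, 90.3% and 72.6% in MLX-DN replicates 1 to 3. It had more than 43.0% in MLX-WT replicate 2 and was wider than 99.2% of the 1250.

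The regions nearest to each window that all 6 libraries list were also compared, a choice made after the data had been seen. At chr3:96439520-96439941, 39.5 kb after the Txnip window, the highest summit had 12.6, 12.6 and 10.5 times the genome-wide level in MLX-DN replicates 1 to 3 and 8.39, 9.62 and 8.79 times in MLX-WT (exact permutation test, two-sided, p = 0.10). The groups did not overlap there, as at 57.6% of all regions listed by 6 libraries. They did not overlap either at chr3:96000929-96001485, 329 kb before the Txnip window. The values at that region were 11.1, 11.3 and 13.2 times in MLX-DN and 9.25, 8.32 and 9.70 times in MLX-WT (exact permutation p = 0.10). At chr7:75422752-75424248, 426 kb before the Arrdc4 window, the order was the opposite, with 6.29, 5.39 and 6.62 times in MLX-DN and 7.23, 8.58 and 6.67 times in MLX-WT (exact permutation p = 0.10). This order, with all of MLX-WT above all of MLX-DN, was found at 1.19% of the 3107 regions. Here the lowest MLX-WT value, 6.67, and the highest MLX-DN value, 6.62, rest on 22 and 24 reads, before division by depth. These values lie within counting error of each other, so the lack of overlap at this region is not firm. At chr7:77504526-77505449, beyond the stretch without peaks, the groups overlapped (exact permutation p = 0.50).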
